A study of Homo sapiens with 108 samples.

Results

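Of the 108 libraries of a SLAM-seq series in HEK293T, a transformed line derived from human embryonic kidney, 12 came from cells with a short hairpin RNA against ZMAT5, and these were compared with 47 libraries in which MAZ, PHF7, ZMAT3 or ZNF706 was knocked down. Libraries were chosen by their titles alone and matched by chase time. The comparison arms held 12 MAZ, 11 PHF7, 12 ZMAT3 and 12 ZNF706 libraries, since PHF7 8 h replicate 3, with 63659 reads in 3′ UTRs, was dropped. No library with the non-targeting hairpin entered any fit, so each difference is one between hairpins and not one from unperturbed cells.

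All 5 arms shared their treatment. Cells received a lentiviral hairpin, were selected with puromycin, and were kept for 24 h in 10 µM 4-thiouridine (4SU), a nucleoside built into new RNA, with fresh medium every 8 h. They were then chased in 1 mM uridine for 0, 2, 4 or 8 h, with 3 biological replicates per arm and time according to the labels. After alkylation, each incorporated 4SU is read as C, so the T>C conversion rate of an mRNA, its conversions per covered T position, measures how much of it dates from the labelling period. Each arm is a selected pool of transduced cells, so the loss of the targeted mRNA and any other effect of the hairpin cannot be told apart. The labels name no sequencing batch, and a batch that coincided with an arm cannot be told apart from it.

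ZMAT5 is the U11/U12-20K protein, a zinc-finger subunit of the U11/U12 particle that recognises the 5′ splice site and branch site of U12-type introns. These introns form a rare class with their own conserved 5′ splice site and branch site, and are removed by the minor spliceosome. Poor recognition of a U12-type intron is known to leave it in the RNA or to activate other splice sites, and such transcripts are often retained in the nucleus or degraded. PITHD1, examined beside ZMAT5, carries the PITH domain also found in the thioredoxin-like protein TXNL1.

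The sequences set beside the level data are those of the hairpin and of places in other mRNAs that hold a run of it. The designed ZMAT5 hairpin of the study matches 21 bases of coding exon 2 of ZMAT5 (hg38 chr22:29748423-29748443, minus strand). It is listed for the RNA-seq knockdowns of the study, to which the SLAM-seq methods refer, and its use in these libraries follows from that reference alone. Its target strand is shown first, with all 21 bases of the match in capitals. Below it stand, aligned to it base by base, 21-base windows of mRNAs that were lower in ZMAT5 knockdown than in each other arm. Capitals mark their unbroken run of bases identical to the target strand. The PITHD1 sites lie in coding exon 5 (chr1:23786368-23786388, plus) and in the 3′ UTR in exon 6 (chr1:23787525-23787545, plus), the NDUFS5 site in the 3′ UTR in exon 3 (chr1:39034553-39034573, plus), the G3BP2 sites in the 3′ UTR in exon 12 (chr4:75645167-75645187 and chr4:75643973-75643993, minus), and the CCNJ site in the 3′ UTR in exon 6 (chr10:96060756-96060776, plus). The URI1 site lies in coding exon 8 (chr19:30009028-30009048, plus) and the BCAR1 site in coding exon 3 (chr16:75237268-75237288, minus).
ZMAT5 target: GAAGGTCTGGTACGACATGTT
PITHD1 coding: tcggagcagaTACGACAaagg
PITHD1 3′ UTR: ctacggaagaTACGACAccac
NDUFS5: aaaggttgttTACGACAaacc
G3BP2, first site: ttaaactatcTACGACAaagt
G3BP2, second site: ttaagtctgggACGACATctt
CCNJ: gtatctgtgtTACGACATtaa
URI1: atggagaagaTACGACATctt
BCAR1: gcaggacgaGTACGACATccc
The shared run lies at target positions 10 to 18, counted from the 5′ end. The run and these genes were picked after their levels had been seen, so the alignment is a description and carries no test.

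The ZMAT5 libraries held 15754965 to 19710682 reads in 3′ UTRs, with 12249 to 12624 genes detected, against 9347942 to 30750027 reads and 11609 to 13975 genes in the other 47. ZNF706 libraries had 11609 to 12733 genes, while those of MAZ, PHF7 and ZMAT3 had 12777 to 13975, more than any ZMAT5 library. The chi-square per gene between replicates, not adjusted for depth, was 56.15 to 80.48 in ZMAT5 and 55.82 to 113.5 in ZNF706. It was 25.94 to 51.27 in MAZ, PHF7 and ZMAT3. The part of this in the calls was not tested. Multimapped reads made up 6.56% to 7.17% of the reads in ZMAT5 and 6.22% to 7.37% in the other arms. Of HEK293T markers, VIM, KRT18 and NEFL were present in every library, KRT8 was low and PAX2 was at or near 0. VIM, at 937 to 1130 CPM in ZMAT5, was called higher by 0.34 on the log2 scale and NEFM lower by 0.48. Of markers of other cells, PTPRC, CD3E and HBB had no read in any ZMAT5 library. ALB, PECAM1 and ACTA2 stayed at or under 3.96 CPM there, while COL1A1 lay at 8.04 to 32.4 CPM and was called higher by 0.52. The part of these markers in the results was not tested. In the comparison arms 3 libraries, MAZ 4 h replicate 1, ZMAT3 4 h replicate 2 and ZNF706 4 h replicate 3, stood apart in their labelling from the others of their arm and time. Results on label loss are given with and without them.

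The ZMAT5 mRNA (chr22:29730956-29767011, minus) was at 0 to 4.30 CPM (counts scaled to library size) in the 12 ZMAT5 libraries, median 1.31, and at 6.41 to 29.2 CPM in the other 47, median 16.9. All 12 libraries lay below the lowest of the 47. The log2 difference from the mean of the 4 arms was -3.48 ± 0.27 (SE, n = 12 and 47, edgeR's quasi-likelihood test, adjusted p = 9.1e-18), and ZMAT5 was at 8.96% of that mean. Part of its counted bases is shared with a neighbouring gene, and whether reads were counted by strand is not given in the sources used here. Of the other targets, ZMAT3 was higher by 1.28, an average that includes the arm in which ZMAT3 itself was knocked down. MAZ, PHF7 and ZNF706 differed by -0.16, 0.54 and -0.26 and were not called.

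PITHD1 (chr1:23778418-23788232, plus) was lower in ZMAT5 knockdown by the same kind of complete separation. It lay at 38.9 to 86.6 CPM, median 54.4, against 113 to 223 CPM, median 158, and no ZMAT5 library reached the lowest other library. The log2 difference was -1.40 ± 0.08 (SE, adjusted p = 3.6e-23), which is 37.9% of the mean of the 4 arms. It was -1.32 against MAZ, -1.32 against PHF7, -1.42 against ZMAT3 and -1.54 against ZNF706, and these comparisons share the ZMAT5 libraries.

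Across 13706 genes with enough reads, 1292 were higher than the mean of the 4 arms (9.43%) and 1263 lower (9.21%), at an adjusted p under 0.05 and a fold over 1.2. A stricter count asked for the same sign and an adjusted p under 0.05 against each arm in turn. By that count 210 genes were higher than in each arm (1.53%) and 328 lower (2.39%). In 10 genes all ZMAT5 libraries lay above all 47 others (0.073%), and in 13 all lay below (0.0948%).

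**Figure D1:**
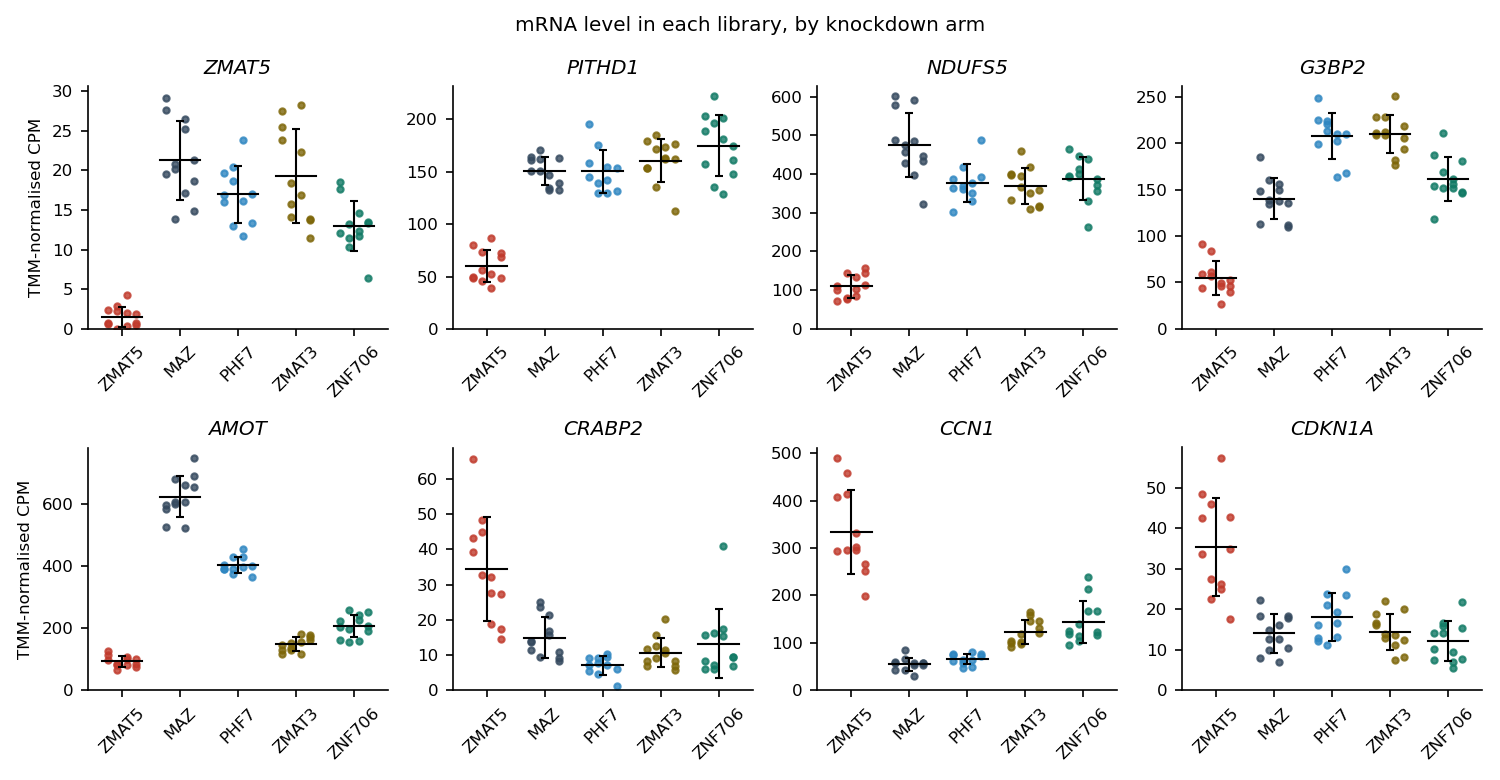
Levels of ZMAT5, PITHD1, NDUFS5, G3BP2, AMOT, CRABP2, CCN1 and CDKN1A in each of the 59 libraries. The vertical axis is TMM-normalised CPM, the horizontal axis the knockdown arm with libraries ordered by chase time within it, and the bars are mean ± SD. All 12 ZMAT5 libraries lie below the other 47 for ZMAT5, PITHD1, NDUFS5 and G3BP2, and 4 of the 12 lie above all others for CRABP2.

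The mRNAs that were lowest relative to the other arms included those of mitochondrial, RNA-binding and signalling proteins. NDUFS5, an accessory subunit of respiratory complex I (chr1:39026318-39034636, plus), was at 72.2 to 157 CPM in ZMAT5, median 107, and at 263 to 601 CPM in the others, median 394. The groups did not overlap, and the log2 difference of -1.86 ± 0.09 (SE, adjusted p = 4.3e-28) left 27.5% of the mean of the 4 arms. Its differences from the single arms ran from -2.11 against MAZ to -1.75 against ZMAT3. G3BP2, an RNA-binding protein of stress granules (chr4:75641849-75724589, minus), was at 26.9 to 91.9 CPM against 109.9 to 250.3 CPM, again without overlap, with a log2 difference of -1.70 ± 0.09 (adjusted p = 1.6e-26).

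AMOT, the junctional scaffold angiomotin (chrX:112774503-112840831, minus), was at 66.9 to 127 CPM in ZMAT5, median 91.6, against 116 to 748 CPM, median 257. In 11 of 12 libraries it lay below all 47 others. Its log2 difference of -1.66 ± 0.07 (adjusted p = 3.2e-30) was uneven across arms, from -2.73 against MAZ to -0.66 against ZMAT3. TIMP3, an inhibitor of matrix metalloproteinases, was at 5.42 to 18.3 CPM against 14.3 to 59.3 CPM, lower by 1.49 and below all others in 8 of 12 libraries. LRATD2 was lower by 1.49, and its difference also ran unevenly, from -2.67 against MAZ to -0.67 against ZMAT3.

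Of the 10 lowest mRNAs chosen by size, 5 had medians under 6 CPM in ZMAT5, where single libraries overlap the other arms. The class IIa deacetylase HDAC4 (median 1.40 CPM in ZMAT5 against 8.83), the ubiquitin ligase PELI1 (5.40 against 19.1), the potassium channel subunit KCNG1 (3.72 against 9.72), the retinoic acid receptor RARG (2.55 against 7.37) and the zinc-finger transcription factor KLF2 (1.85 against 6.51) were lower by 1.48 to 1.64 on the log2 scale. Each had an adjusted p of at most 0.0031. RARG and KLF2 kept their sign but not their call when only the 0 h libraries were used.

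On the higher side, CRABP2, which binds retinoic acid inside the cell, was at 14.6 to 65.7 CPM against 1.33 to 41.1 CPM, higher by 1.69, with 4 libraries above all others. LRP2, the endocytic receptor megalin, was higher by 1.59 but overlapped the others in 10 of 12 libraries and lost its call with the 0 h libraries alone.

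CCN1 and CCN2 encode secreted matricellular proteins that are known targets of YAP and TEAD. CCN1 (chr1:85580761-85584589, plus) was at 199 to 489 CPM in ZMAT5, median 299.5, against 29.7 to 239 CPM, median 91.4, and 11 of 12 libraries lay above all others. Its log2 difference was 1.91 ± 0.09 (adjusted p = 8.3e-28), a 3.75-fold higher level. CCN2 was at 36.1 to 129 CPM against 2.08 to 85.0 CPM, higher by 1.78 ± 0.17, with 5 libraries above all others. The differences of both were largest against MAZ (2.59 and 2.90) and smallest against ZNF706 (1.24 and 1.03).

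EEF1A2, a tissue-restricted translation elongation factor, was at 13.4 to 92.1 CPM against 1.63 to 24.6 CPM, higher by 2.10 with 11 libraries above all others. The large scaffold protein AHNAK (higher by 1.65), the neuropeptide precursor CALCB (1.60) and the annexin ANXA3 (3.05) were above all others in 10, 8 and 10 libraries. NPPB, the precursor of brain natriuretic peptide, had no read in 37 of the 47 other libraries and 1 of the 12 ZMAT5 libraries. It lay at a median of 6.38 and at most 9.88 CPM in ZMAT5 and at most at 2.65 CPM elsewhere, so its fitted log2 value of 6.43 depends on the prior count and is not a fold.

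**Figure D2:**
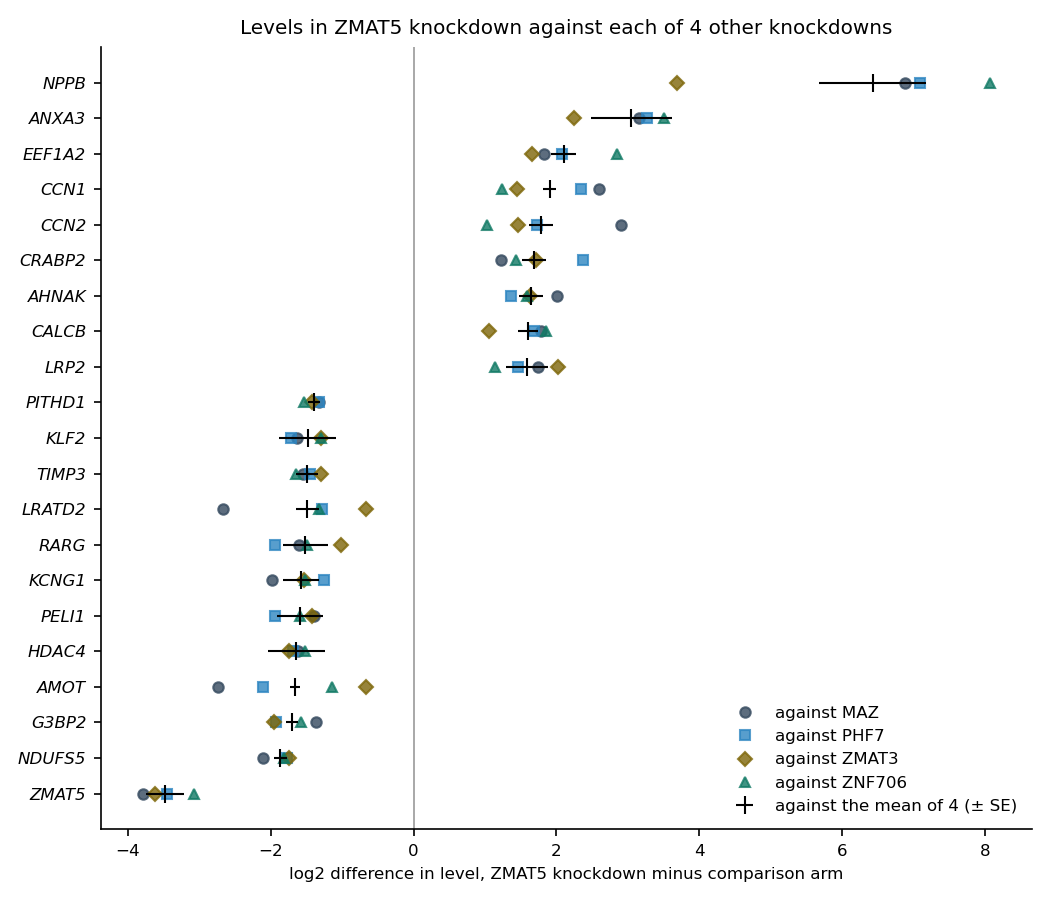
Log2 differences in level of 21 named genes, ZMAT5 minus each of the other 4 arms (points) and minus their mean (bar ± SE), from edgeR's fit to 59 libraries. NDUFS5, G3BP2 and PITHD1 sit at like values against every arm, while AMOT runs from -2.73 against MAZ to -0.66 against ZMAT3, and the NPPB values rest on arms with few or no reads.

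Of 14 minor spliceosome proteins tested, 2 were higher (14.3%) and 1, ZMAT5 itself, was lower (7.14%), beside 9.43% and 9.21% of all genes. Their median log2 difference was 0.03 against -0.01 over all genes. The U11-associated SNRNP48 was at 92.9 to 192 CPM against 68.4 to 150.2 CPM, higher by 0.52 ± 0.07 (adjusted p = 1e-08) and higher than in each arm, with 3 libraries above all others. SNRNP35, another U11/U12 subunit, was higher by 0.37 ± 0.12 (adjusted p = 0.019) with overlapping groups, and it lost its call in 5 alternative settings.

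The remaining 11 proteins did not pass the test, as was the case for most genes. Among U11/U12 subunits the log2 differences were 0.13 for SNRNP25, -0.23 for PDCD7, 0.02 for RNPC3 and -0.12 for ZCRB1, and ZRSR2, which reads the 3′ splice site, was at a median of 2.91 CPM with -0.27 ± 0.36. CENATAC and SCNM1, which act on particular U12-type introns, differed by 0.28 and -0.04, and both share counted bases with other genes. RBM48, ARMC7, TXNL4B and CRIPT lay between -0.06 and 0.22. Of 24 Sm, U1 and U2 proteins, 5 were higher (20.8%, beside 9.43% of all genes) and 0 lower (beside 9.21%), with a median of 0.04. They included SNRPD1 (0.45), the SF3B subunit PHF5A (0.51), SNRPD3 (0.30) and SNRPA1 (0.28), of which PHF5A alone was higher than in each arm.

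U12-type introns were searched by a 5′ splice site, ATATCCT or GTATCCT, and a branch site within 2 mismatches of TTCCTTAAC near the 3′ end. They were found in 500 genes, and 459 of these genes were tested. Their median log2 difference was -0.04. Of them 33 were higher (7.19%) and 43 lower (9.37%), beside 9.43% and 9.21% of all genes. Against each arm 7 and 10 of the 459 passed, beside 1.53% and 2.39% of all genes. These shares are near those of all genes. The reads cover 3′ ends, so they count both spliced and intron-retaining RNA that carries the same poly(A) site, and splicing itself was not measured.

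The called members of this group with the smallest p lay in both directions. SPC24, a kinetochore protein with U12-type introns at chr19:11147290-11147817 and chr19:11148118-11149093, was at 27.9 to 55.4 CPM against 42.3 to 116 CPM, lower by 1.17 ± 0.10 (adjusted p = 1.6e-16), with 10 libraries below all others. Its second intron has AT-AC ends. EML2, a microtubule-associated protein, was higher by 0.92, DDB1, a DNA damage-binding adaptor of a ubiquitin ligase, by 0.42 and the signal peptidase subunit SPCS3 by 0.51. Of 23 kinases, E2F factors and channels known for U12-type introns, 3 were higher and 3 lower (13.0% each, median -0.06). The shares of all genes were 9.43% and 9.21%. The kinase MAPK8 was higher (0.52), while E2F5 (-0.72, which shares counted bases) and E2F6 (-0.45, with 26.3% multimapped reads) were lower.

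Of 18 genes of the thioredoxin system, 1 was higher (5.56%) and 4 were lower (22.2%), beside 9.43% and 9.21% of all genes. The lower genes include PITHD1, already given above as lower, and the count of 4 was not corrected for that. The cytosolic thioredoxin TXN was at 803 to 1367 CPM against 448 to 1574 CPM, higher by 0.38 ± 0.05, and its mitochondrial counterpart TXN2 was at 78.8 to 138 CPM against 84.6 to 224 CPM, lower by 0.42 ± 0.08. The glutaredoxin GLRX5, which serves iron-sulphur cluster assembly, was lower by 0.27. Only PITHD1 and TXN2 of this list were lower than in each arm. Of 73 subunits of the respiratory complexes, 5 were higher (6.85%) and 8 lower (11%), with a median of -0.04. The shares of all genes were 9.43% and 9.21%. The complex II anchor SDHC (0.50), which shares counted bases, and the ATP synthase subunit ATP5MG (0.44) were higher, and no subunit was lower by as much as NDUFS5.

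Immediate-early genes, whose short-lived mRNAs follow growth and stress signals, were called more often than all genes in the higher direction. Of 32 tested, 12 were higher (37.5%) and 3 lower (9.38%), beside 9.43% and 9.21% of all genes, with a median of 0.32. Of the 32, 8 were higher than in each arm, beside 1.53% of all genes. Besides CCN1 and CCN2, ATF3, a stress-induced factor, was at 62.0 to 142 CPM against 16.0 to 80.8 CPM, higher by 1.39 ± 0.10 (adjusted p = 3.2e-18), with 10 libraries above all others. IER3 was higher by 1.27, yet nearly all of its reads were multimapped. KLF2, named above, was one of the 3 that were lower.

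JUN, the AP-1 subunit, was at 640 to 996 CPM against 270.0 to 810.1 CPM, higher by 0.63 ± 0.05, with 7 libraries above all others. Its difference depended on chase time (edgeR's quasi-likelihood test, adjusted p = 0.0043), at 0.91, 0.85, 0.47 and 0.21 on the log2 scale at 0, 2, 4 and 8 h. That of CCN1 went from 2.31 at 0 h to 1.36 at 8 h, with an adjusted p of 0.053. Over all genes, 25 of 14864 showed such a dependence (0.168%). That count was not stable, at 5 with PHF7 8 h replicate 3 kept in, 16 with the replicate block, 87 to 215 without 1 ZMAT5 replicate and 365 with no filter on low counts.

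Of 25 p53 targets, 6 were higher (24.0%) and 2 lower (8.00%), beside 9.43% and 9.21% of all genes, with a median of 0.06. Of the 25, 4 were higher than in each arm, beside 1.53% of all genes. The HEK293T line carries large T antigen, which binds p53. CDKN1A, the cell cycle inhibitor p21, was at 17.7 to 57.4 CPM against 5.49 to 29.98 CPM, higher by 1.31 ± 0.15 (adjusted p = 1e-10), with 7 libraries above all others. The apoptotic factors PMAIP1 (0.76) and BAX (0.51) and the growth-arrest gene GADD45A (0.65) were higher too, with ranges that met those of the other arms. ZMAT3 is itself on this list and was higher, as given above, against a mean that includes the arm in which it was knocked down. The count of 6 was not corrected for that.

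Members of the stress lists were called in both directions. Of 27 genes of the integrated stress and unfolded protein response, 4 were higher (14.8%) and 5 lower (18.5%), with a median of -0.12. The shares of all genes were 9.43% and 9.21%. The chaperone HSPA5 (0.54) and SDF2L1 (0.59) were higher and the disulphide isomerase PDIA4 lower by 0.52, with 7 libraries below all others. Of 26 heat shock and chaperone genes, 4 were higher (15.4%) and 1 lower (3.85%), with a median of 0.09. The higher included HSPD1 (0.30), CCT8 (0.36) and DNAJB1 (0.36), and the lower was the HSP90 co-chaperone AHSA1 (-0.40). Of 23 interferon-stimulated genes tested, 4 were higher (17.4%) and 1 lower (4.35%), with a median of 0.50. OAS3 (1.13) and IRF1 (0.91) lay under 25 CPM, B2M (0.54) had 84.5% multimapped reads, and the lower gene, IFIT2, had no read in any ZMAT5 library and a median of 0 in the others.

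Of 36 G2/M genes, 8 were higher (22.2%) and 1 lower (2.78%), beside 9.43% and 9.21% of all genes, with a median of 0.08. Anillin, ANLN, was at 110.0 to 259 CPM against 31.7 to 133 CPM, higher by 0.89 with 9 libraries above all others, and the kinase AURKA and the topoisomerase TOP2A were higher by 0.47 and 0.46. KIF23, the kinesin of the cytokinetic midzone, was lower by 0.71. Of 37 G1/S and replication genes, 8 were higher (21.6%) and 5 lower (13.5%), both above the shares of all genes, with a median of 0.07. The flap endonuclease FEN1 (0.43), the phosphatase CDC25A (0.36) and RRM2 (0.30) were higher and the cyclin CCND2 was lower by 0.83.

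Ribosomal protein mRNAs had small differences, mostly in the higher direction. Of 84 tested, 25 were higher (29.8%) and 1 lower (1.19%), beside 9.43% and 9.21% of all genes, with a median of 0.17. None was higher than in each arm. RPS3 was at 2626 to 4033 CPM against 1623 to 3968 CPM, higher by 0.54 ± 0.05, RPLP1 was higher by 0.48, RPS24 by 0.45 and RPL8 by 0.36. Their ranges overlapped those of the other arms, and RPS24 and RPL8 lost their call without the PHF7 arm.

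RNA decay factors were called in both directions. Of 47 deadenylation, decapping and exosome genes, 4 were higher (8.51%) and 6 lower (12.8%), beside 9.43% and 9.21% of all genes, with a median of -0.03. Among them were the deadenylase CNOT6 (0.51), SKIC8 of the SKI complex (0.44), LSM4 (-0.44) and EXOSC6 (-0.31). Of 19 nonsense-mediated decay factors, 1 was higher (5.26%) and 3 were lower (15.8%), with a median of -0.07. SMG9, a partner of the kinase SMG1, was at 2.43 to 16.2 CPM against 11.6 to 37.9 CPM, lower by 1.45 ± 0.18 (adjusted p = 8.3e-10), with 8 libraries below all others. Its difference depended on chase time (edgeR's quasi-likelihood test, adjusted p = 0.045) and was -2.86 at 8 h. UPF2 was lower by 0.43, and MAGOH, of the exon junction complex, was higher by 0.58.

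Another 3 lists remained. Of 29 cholesterol and fatty acid genes, 3 were higher (10.3%) and 1 lower (3.45%), with a median of 0.15. The shares of all genes were 9.43% and 9.21%. PMVK, a kinase of the mevalonate pathway, was higher by 0.31 and changed sign with the 0 h libraries alone. Of 45 proteasome genes, 4 were higher and 4 lower (8.89% each), with a median of 0.01. PSMB1 (0.29) and PSMB5 (0.28) were higher and the assembly chaperones PSMG1 (-0.39) and PSMG4 (-0.47) lower. Of 431 ZNF-named genes, 16 were higher (3.71%) and 38 lower (8.82%), with a median of -0.06. ZNF503, at 256 to 449 CPM against 552 to 1266 CPM, lay below all others in every ZMAT5 library (-1.26).

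**Figure D3:**
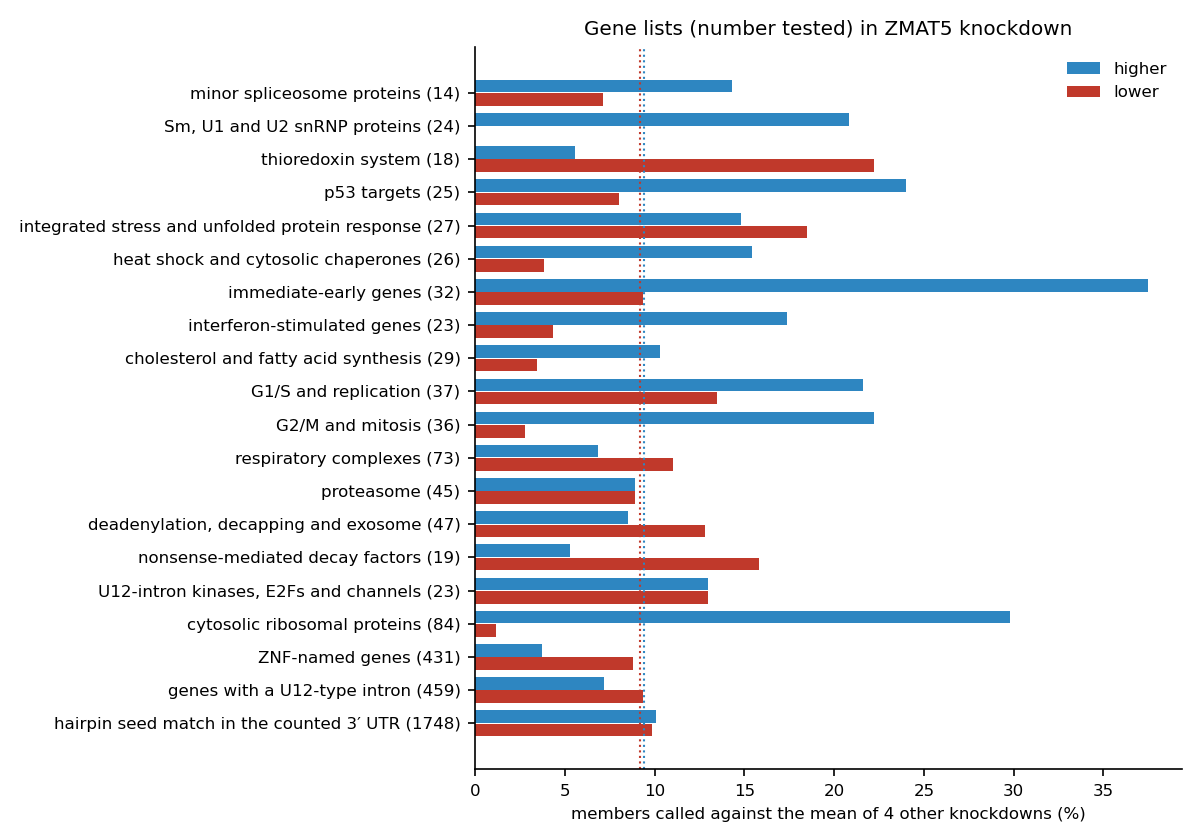
Percent of the tested genes of each list that were higher or lower in ZMAT5 knockdown than the mean of the 4 other arms. Dotted lines mark 9.43% and 9.21%, the shares of all 13706 genes. The immediate-early list (37.5%) and the ribosomal proteins (29.8%) extend furthest in the higher direction, and genes with a U12-type intron lie near the dotted lines on both sides.

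The same levels were read against the hairpin sequence. The seed match of the designed guide, GACATGT, complementary to guide bases 2 to 8, was held by the counted 3′ UTR of 1748 tested genes. Of these, 177 were higher and 172 lower (10.1% and 9.84%), beside 9.43% and 9.21% of all genes, and the median was 0.00. Against each arm 38 and 38 passed (2.17% each), beside 1.53% and 2.39% of all genes. With the smallest p among them, PERP, a membrane protein of desmosomes (0.78), CCDC47 (0.73) and EPB41L2 (0.73) were higher and FEM1B (-0.74) was lower.

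All 30 windows of 7 bases of both hairpin strands were then searched in the counted 3′ UTRs. For the 4 windows that start at target positions 10 to 13, more of the genes holding them were lower than in each arm. GTACGAC was held by 165 tested genes with a median log2 difference of -0.15, of which 8.48% were lower and 0 higher than in each arm. TACGACA was held by 287 genes with a median of -0.16, of which 10.8% were lower and 0.348% higher. ACGACAT gave 8.68% lower of 380 genes and CGACATG 4.80% of 375.

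The other 26 windows gave between 0.913% and 2.95%, beside 2.39% of all genes. Median length of the counted 3′ UTRs was 3281 to 3792 bases for the 4 windows and 3158 to 4074 for the others. The run TACGACAT, target positions 11 to 18 and guide positions 4 to 11, covers the inner part of these windows. These windows were singled out after their values were seen, and no test was made.

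The differences were larger where the shared run was longer. With all 8 bases of TACGACAT in the counted 3′ UTR, 92 genes had a median log2 difference of -0.25, 27 were lower (29.3%) and 2 higher, and 14 were lower than in each arm (15.2%). With 7 bases, 478 genes had a median of -0.10, with 18.8% lower and 6.90% lower than in each arm. With the inner 6 bases, ACGACA, 811 genes had a median of -0.07, with 14.4% and 4.32%. With none, 12325 genes had a median of 0.00, with 8.35% and 2.00%. Counted 3′ UTRs of the last class were shorter, with a median of 1784 bases against 3294 to 3728, and the part of length was not tested.

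The order was alike against each arm taken alone. The median of the 8-base class was -0.19 against MAZ, -0.28 against PHF7, -0.32 against ZMAT3 and -0.21 against ZNF706, and that of genes with none lay between -0.03 and 0.01. Where the run lay elsewhere in the canonical transcript and not in the counted 3′ UTR, 9.16% of 131 genes with 8 bases were lower than in each arm, 4.51% of 843 with 7 and 2.66% of 1203 with 6, against 1.63% of 10090 with none. Their medians did not follow the length of the run in the same way, at -0.064 with 8 bases, -0.082 with 7, -0.033 with 6 and 0.015 with none.

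**Figure D4:**
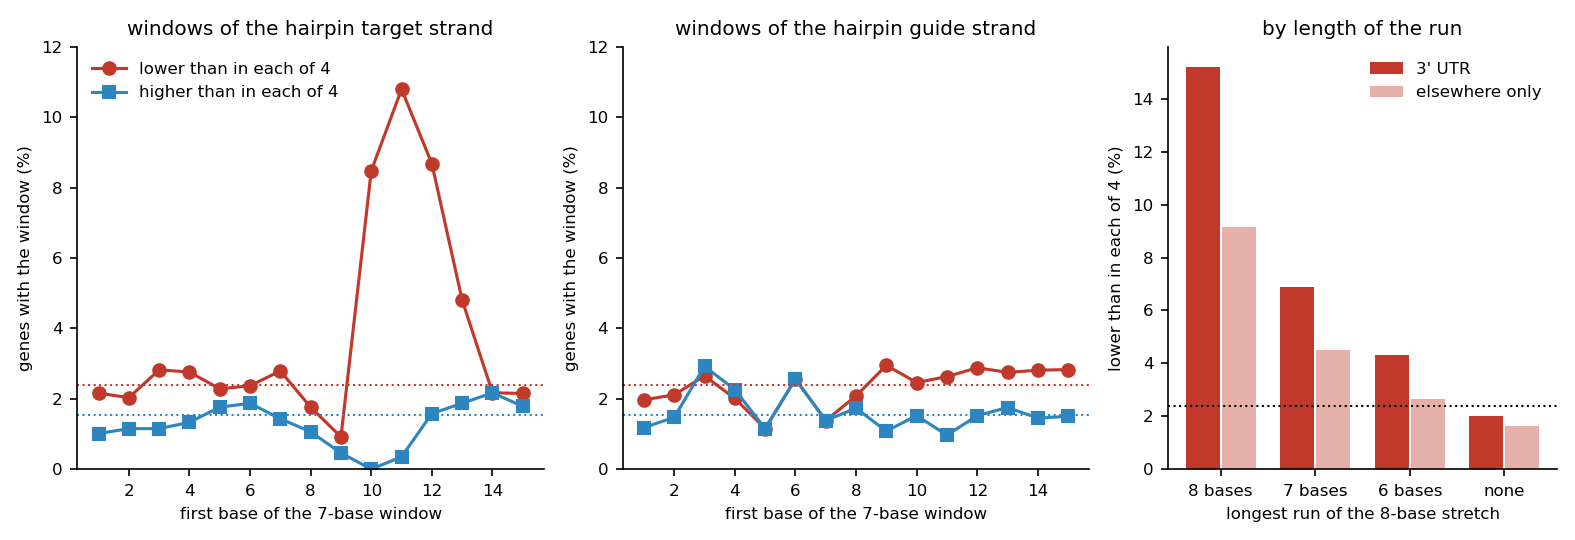
Percent of genes lower in ZMAT5 knockdown than in each of the 4 other arms among genes whose counted 3′ UTR holds a 7-base window of the ZMAT5 hairpin, by the first position of the window on the target strand and on the guide strand, and by the length of the run shared with target positions 11 to 18. The dotted line is the share of all genes, 2.39%. Windows starting at target positions 10 to 12 reach 8.48% to 10.8%, no guide-strand window exceeds 2.95%, and the 8-base class reaches 15.2%.

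Counted from the genes, 47 of the 328 lower than in each arm (14.3%) held 7 or 8 bases of the run in the counted 3′ UTR, 82 (25%) held at least 6 there, and 164 (50%) held at least 6 anywhere in the canonical transcript. Of the 210 higher than in each arm, the shares were 3.33%, 8.10% and 16.7%, and of all genes 4.16%, 10.1% and 26.0%. The longest run among the windows shown above, 9 bases, is that of BCAR1. Runs of 11 bases, not shown there, lay in ZNF689 (-0.85), DESI2 (-0.79) and HDGFL3 (-0.50), also lower than in each arm. Of the 10 lowest genes named above, NDUFS5 and G3BP2 held 7 bases and HDAC4 held 6 bases in the 3′ UTR, KCNG1 held 7 bases and AMOT 6 in the coding sequence, and the other 5 held none. Of the 10 highest, CCN1 held 7 bases in the 3′ UTR and CCN2 held 6 elsewhere. Whether the hairpin acts on any of these mRNAs was not tested.

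Labelling differed between the arms before any chase. Pooled over 6250 genes, the T>C rate at 0 h was 1.24% to 1.33% in the 3 ZMAT5 libraries, 1.28% ± 0.0418 (SD), and 2.65% ± 0.449 in the 12 others, whose lowest value was 2.185%. The groups did not overlap (difference -1.36 percentage points, exact two-sided permutation test, p = 0.004396, the smallest that 3 against 12 can give). Those 12 came from the 4 comparison arms and are not replicates of 1 condition, so this p does not measure the spread between arms. Against the single arms, with means of 2.96% (MAZ), 2.27% (PHF7), 3.03% (ZMAT3) and 2.31% (ZNF706), each exact p was 0.1, the smallest that 3 against 3 allows. At 8 h the ZMAT5 libraries were at 0.523% to 0.552%, which is 42.1% of the 0 h value, against 29.8% in MAZ, 40.6% in PHF7, 38.5% in ZMAT3 and 36.9% in ZNF706. No library without 4SU was analysed here, so these rates include the background of mismatches, whose part was not tested.

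Because of that offset, the rate of each gene was also taken relative to the pooled rate of its library, over all chase times. Of 7398 genes, 97 had a higher relative rate in ZMAT5 (1.31%) and 207 a lower one (2.80%). TXN had the smallest p among the higher, at a relative rate of 2.24 ± 0.84 (SD) in ZMAT5 and 1.48 to 1.75 in the other arms, a log2 difference of 0.47 ± 0.04 (adjusted p = 3.1e-15). Its own T>C rate stayed nearly level through the chase in ZMAT5, at 1.95% to 2.09% at 0 h and 1.83% to 2.03% at 8 h. The means of the other arms spanned 2.582% to 3.285% before the chase and 2.171% to 2.637% after 8 h. In every arm TXN thus lost less of its rate than the pooled genes did. The part of the lower pooled rate of ZMAT5 in the higher relative rate of TXN was not tested. PSMA4 (0.40), RPL34 (0.44), RPS27A (1.17) and MIF (0.49), whose reads were nearly all multimapped, followed.

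Among lower relative rates, SPECC1 was at 0.0799 in ZMAT5 against 0.344 to 0.846 (log2 -3.04 ± 0.49, adjusted p = 2.5e-05). SSX2IP (-1.75), the kinase DYRK2 (-1.50), the transcription factor TCF4 (-2.02) and RFLNB (-0.83) were lower too. PITHD1 (-0.55, adjusted p = 0.079), NDUFS5 (0.18) and UHMK1 (0.17) were not called.

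**Figure D5:**
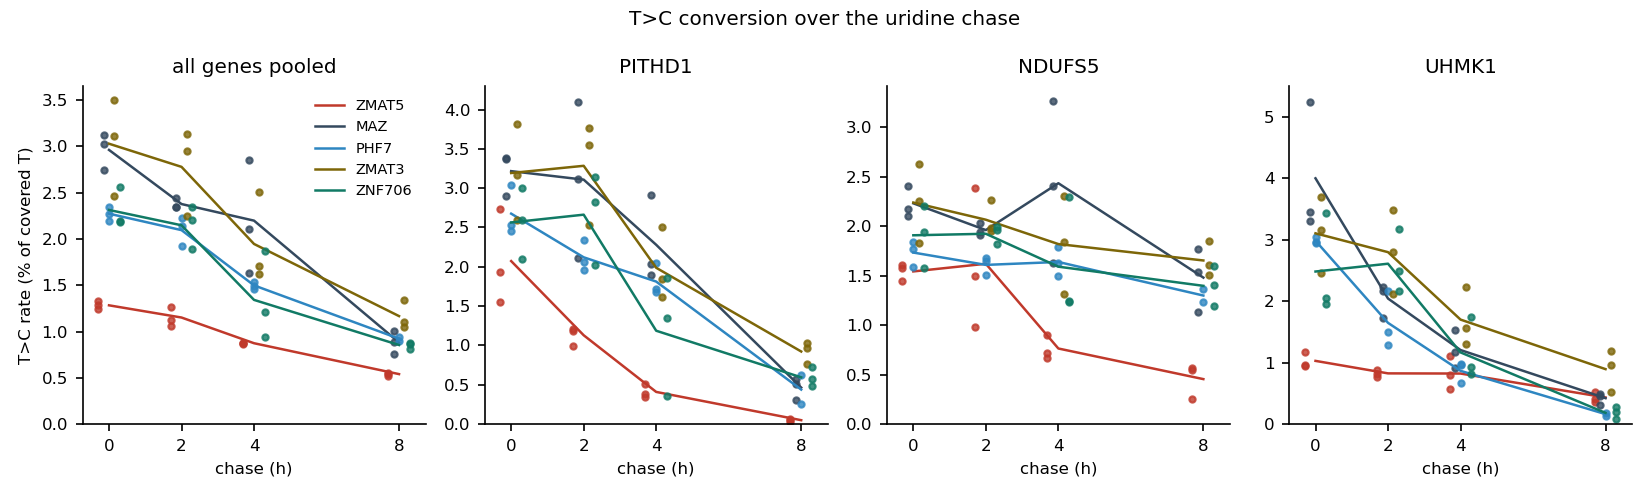
T>C conversion rate in percent against hours of uridine chase for the pooled 6250 genes and for PITHD1, NDUFS5 and UHMK1, by arm, with each library as a point and the mean as a line. The pooled rate of ZMAT5 starts at 1.28% against 2.27% to 3.03%. PITHD1 falls to 0.0496% at 8 h in ZMAT5, and UHMK1 starts lower and falls less than in the other arms.

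Loss of label through the chase was faster in ZMAT5 for 56 of 7398 genes (0.757%) and slower for 46 (0.622%), by the difference in slope of the log rate. The median difference in loss rate over all genes was -0.013 per h, on the side of slower loss. With the pooled rate of the library in the offset, the counts rose to 284 faster and 105 slower. Without 1 ZMAT5 replicate, 24 to 36 of the 56 faster genes and 17 to 24 of the 46 slower were called again. Without the 3 libraries that stood apart, 92 were faster and 107 slower, and with the 0, 2 and 4 h libraries alone 4 were faster and 0 slower, so few calls were made without the 8 h libraries. Of the 10 genes named for the smallest p in label loss, 9 then kept their sign and lost their call, with PITHD1 at an adjusted p of 0.090 and UHMK1 at 0.22, and 1 changed sign.

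PITHD1 had the smallest p of the faster group. In ZMAT5 its T>C rate was 2.74%, 1.93% and 1.55% at 0 h, 1.00%, 1.21% and 1.18% at 2 h, 0.505%, 0.376% and 0.345% at 4 h, and 0.0311%, 0.0557% and 0.0619% at 8 h. In the other arms it lay at 2.10% to 3.81% at 0 h and 0.252% to 1.04% at 8 h, so that the groups overlapped at 0 h and were separate at 8 h. The fitted loss rate was 0.472 per h against a mean of 0.210 per h, a difference of 0.262 ± 0.041 (SE, edgeR's quasi-likelihood test, adjusted p = 1.9e-04). The fitted half-life was 1.94 h in ZMAT5 and 4.68 to 6.03 h in the other arms.

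NDUFS5, a stable mRNA in the other arms, was also faster. Its rate in ZMAT5 was 1.45% to 1.61% at 0 h and 0.25% to 0.566% at 8 h, against 1.58% to 2.63% and 1.14% to 1.85%. The loss rate was 0.171 against 0.0399 per h (difference 0.131 ± 0.026, adjusted p = 0.0045). G3BP2 and AMOT, lower in level by like amounts, were not called, at 0.187 against 0.221 per h and 0.196 against 0.196 per h. For G3BP2 the fitted half-life pointed the other way, at 2.70 h in ZMAT5 against 3.93 to 5.05 h in the other arms, so its direction depended on the measure. That of AMOT was 4.37 h against 4.57 to 6.64 h.

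EMC4, a subunit of the ER membrane protein complex that shares counted bases with another gene, was lost at 0.263 against 0.0658 per h and was lower in level by 1.86. COQ9, of coenzyme Q synthesis (0.470 against 0.116 per h), and ABITRAM (0.556 against 0.177) were faster too and were lower in level by 0.74 and 0.59. Both hold no run of 6 bases of TACGACAT. DLG5, with 99.4% multimapped reads, was lost at 0.487 against 0.134 per h and was not called in level.

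UHMK1, a kinase with an RNA recognition motif, was in the slower group. Its T>C rate in ZMAT5 was 0.941% to 1.18% at 0 h and 0.361% to 0.530% at 8 h, against 1.96% to 5.25% and 0.0835% to 1.19%, so that it started below all others and ended within their range. The loss rate was 0.104 against 0.290 per h (difference -0.185 ± 0.033, adjusted p = 0.0013), and the level was higher by 1.10 ± 0.07, at 199 to 354 CPM against 66.4 to 229 CPM. CCN1 was also slower, at 0.259 against 0.378 per h (adjusted p = 0.020), beside its higher level. The zinc-finger genes ZNF92 (0.0547 against 0.329 per h) and ZFX (0.110 against 0.343), and UBTD2 (0.162 against 0.323), were slower without a call in level. The gene ENSG00000281039, which shares counted bases, had no conversion at 0 h in ZMAT5 and is named only.

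Level and label loss were set side by side. Of the 56 genes lost faster, 29 were lower in level, 1 was higher and 26 were not called, with a median log2 difference in level of -0.31. Of the 46 lost slower, 5 were higher, 10 lower and 31 not called. Beside them, of the 7296 genes not called in label loss, 968 were higher in level, 790 lower and 5538 not called. Of 234 genes lower than in each arm with a loss rate, 60.3% had the faster sign, of 180 higher than in each arm 26.7%, and of all genes 41.0%. Level and conversion counts come from the same libraries, so these shares are a description.

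Genes with all 8 bases of TACGACAT in the counted 3′ UTR had a median difference in loss rate of 0.0091 per h over 57 genes, 3 of them called faster, and those with none a median of -0.0142 per h over 6650 genes. Those with 7 and 6 bases had medians of 0.0002 and 0.0056 per h. The faster sign was held by 52.6%, 50.6% and 52.5% of genes with 8, 7 and 6 bases and by 39.8% of those with none.

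Half-lives over the transcriptome did not separate ZMAT5 from the other arms. Among 4294 genes whose first-order curve was accepted in all 5 arms, the median was 3.84 h in ZMAT5, 3.90 h in MAZ, 4.14 h in PHF7, 4.37 h in ZMAT3 and 3.72 h in ZNF706. The order was ZNF706, ZMAT5, MAZ, PHF7 and ZMAT3, and no neighbours in it differ beyond the spread of replicate curves, which was 3.98 to 4.06 h in ZMAT5 and 2.98 to 7.94 h in ZMAT3. Exact two-sided permutation tests gave p of 0.4 to 1.0, and 3 curves against 3 cannot go below 0.1. PHF7 had 2 curves, so its test was 3 against 2. Each replicate curve joined the libraries of 1 replicate number over the chase times, and the labels do not say that a number links these cultures. The curve at 7.94 h is that of ZMAT3 replicate 2, whose 4 h library stood apart in its labelling.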

How the data were processed

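QuantSeq 3′ end libraries were sequenced from alkylated RNA, and per the labels reads were mapped to hg38. The authors counted them with SlamDunk over 69079 3′ UTR intervals in 19761 genes. The columns used here were the deposited counts of reads, multimapped reads, covered T positions and T>C conversions. The CPM that the authors deposited, scaled to the mapped reads of a library, served only as the minimum of 5 CPM. No source used here gives the strand setting, a variant mask or a quality minimum.

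Counts were summed per Ensembl identifier and named through GENCODE release 44 (19501 of 19761 matched). Printed CPM are TMM-normalised and relative to reads in 3′ UTRs. Levels were tested with edgeR 4.0.16 (quasi-likelihood, filterByExpr, TMM) with arm and chase time as terms, ZMAT5 minus the mean of the 4 arms and minus each arm, at a Benjamini-Hochberg adjusted p under 0.05 over all genes and a fold over 1.2. A second edgeR fit tested the interaction with chase time. For conversions, genes needed more than 5 CPM in 2 or more replicates of every arm and time, and edgeR took log T coverage for its offset in slopes, and the log of T coverage times the pooled rate of the library in relative rates. Half-lives were fitted to rates relative to 0 h with R2 over 0.6. Scripts were tested on simulated data.

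Depth was 9347942 to 30750027 reads in 3′ UTRs. Reads carry no molecular identifiers, and p-values cover the spread between the labelled replicates. The members and lists were chosen with earlier results of these data known. Named genes were ZMAT5, PITHD1 and the other targets, the 10 largest log2 differences each way among genes called against each arm (mean of at least 5 CPM, no shared bases), up to 4 called members per list with the smallest p, all minor spliceosome subunits, and the 5 genes with the smallest p each way for relative rate, label loss and chase time. U12-type introns, hairpin sites and coordinates were read from hg38 and GENCODE 44, the hairpin from the supplementary oligo table of the study. Alternatives were DESeq2 1.42.0 and limma 3.58.1, other filters, the replicate block, single chase times, arms or replicates left out. One PHF7 library was left out for depth. Some genes that these rules name are not reported here.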

Additional observations from a re-analysis of the deposited data

Results flagged for a closer look

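For 11 named genes the difference in level between ZMAT5 knockdown and the other arms depended on chase time (interaction in edgeR's quasi-likelihood test, adjusted over 14864 genes). The difference of JUN went from 0.91 at 0 h to 0.21 at 8 h on the log2 scale (adjusted p = 0.0043). COPS4 (adjusted p = 0.0043) was at 0.19, -0.78, -0.07 and 0.49 at 0, 2, 4 and 8 h, and COP1 (0.0072) at -0.54, 0.24, -1.52 and -0.27. HDAC2 (0.017) went from -0.05 at 0 h to 0.59 at 8 h. POM121C (0.023) stayed between 0.01 and 0.14 until 4 h and was at -0.90 at 8 h. FBXO5 (0.024) was at 0.34, -0.16, -0.81 and 0.76, and SYNJ2BP-COX16 (0.024), which shares counted bases, at -0.50, 0.02, -0.55 and 0.33. MKX (0.024) had a median of 0.439 CPM in ZMAT5, so its values of -4.33 and -6.54 at 4 and 8 h depend on the prior count. HEG1 (0.040) was at 1.74, 0.99, 1.36 and -0.46, and BMPR2 (0.040) went from 0.56 at 0 h to -0.99 at 8 h. SMG9 (0.045) was lower at every time, at -1.46, -0.93, -1.01 and -2.86. What sets these differences between times was not tested.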

How the results depend on the processing

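The counts of genes higher and lower than the mean (1292 and 1263) and than each arm (210 and 328) stayed within 1.5 times under DESeq2, which gave 1385, 1359, 255 and 354 with 33 adjusted p-values not available, under no filter, subtracted multimapped reads, summed chase times and the 3 libraries that stood apart left out. With each arm left out in turn, the counts against the mean also stayed within 1.5 times, and those against each arm were not run. With the 0 h libraries alone they were 667, 497, 59 and 98. Without 1 ZMAT5 replicate they ranged from 1124 to 1182, 1171 to 1231, 174 to 186 and 313 to 323. Replicate numbers did not pair the samples, since none of 47 pairs of same-numbered libraries correlated over 0.1, and with the replicate block the counts were 1288, 1279, 213 and 322. Genes that depend on chase time numbered 25, 16 with the replicate block, 365 with no filter, 5 with PHF7 8 h replicate 3 kept, 45 without the 3 libraries that stood apart and 87 to 215 without 1 ZMAT5 replicate. Higher relative T>C rates numbered 83 to 96 and lower 131 to 186 without 1 ZMAT5 replicate, and the lower were 714 by limma on log2(rate + 0.1) and 137 over 20 CPM. Of the 97 higher and 207 lower genes of the main fit, 59 to 66 and 75 to 98 were called again without 1 ZMAT5 replicate. With the 0 h libraries alone 107 and 195 were called, of which 20 and 34 were shared with the main fit. Slower and faster label loss numbered 14 and 22 over 20 CPM, 105 and 284 with the pooled rate in the offset, 0 and 4 with the 0, 2 and 4 h libraries, 107 and 92 without the 3 libraries, and 42 to 58 and 73 to 93 without 1 ZMAT5 replicate, and limma called 20 faster. The genes called changed more than these counts. Without 1 ZMAT5 replicate, 17 to 24 of the 46 slower and 24 to 36 of the 56 faster genes of the main fit were called again. The share lower than in each arm among holders of 7 or 8 bases of the run, 8.25%, lay between 6.51% and 9.30% except with the 0 h libraries, 2.68% beside 0.646% of all genes. The pooled rate difference was -1.34 to -1.38 without 1 replicate, and the half-life difference of -0.188 h ranged from -0.321 to -0.257 h and was 0.0808 h with no R2 minimum. Signs changed for PMVK (-0.096) and MKX (0.20) at 0 h and for ENSG00000281039 (-0.089) with the 0, 2 and 4 h libraries. Of 2441 values of named genes under alternatives, 2266 kept sign and call and 109 lost the call. The cause was not tested for these changes.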
